A study of Mus musculus with 12 samples.

Results

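Mouse embryonic stem (ES) cells labelled as overexpressing the DNA methyltransferases Dnmt3a and Dnmt3b were compared with cells labelled as overexpressing Dnmt1, both made from ES cells without Dicer. The 2 lines were never on the same array. Each was hybridised against its own Dicer-null parent, so within each clone the log2 ratio of the Dnmt1 line was subtracted from that of the Dnmt3a,3b line, and the Dicer-null RNA cancelled. Of the 12 two-colour Agilent arrays of the series, 8 entered this difference: 4 of the Dnmt3a,3b line and 4 of the Dnmt1 line.

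Per the labels, the groups were Dicer1-null 27G5 and Dicer1-null 27H10 cells carrying Dnmt3a,3b, and the same 2 clones carrying Dnmt1. All were Dicer-null, all were total RNA from cells grown on gelatin with leukemia inhibitory factor, and no other treatment was applied. The labels name no promoter or vector for the transgenes, and do not say whether an overexpressing line was 1 clone or a pool. Every pairing of RNAs was hybridised 2 times with the dyes exchanged, which gave 1 ratio per line and clone. The clone was therefore the replicate (n = 2), and because separate cultures are not named, p measures the spread between these samples alone. The spread behind p was pooled over the ratios of both lines and the Dicer-null over wild-type ratios of the series, without pairing by clone. It is therefore not the SD printed beside a difference.

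Dicer cuts microRNA precursors into mature microRNAs. Dnmt1 copies CpG methylation onto newly made DNA, while Dnmt3a and Dnmt3b set methylation on unmethylated CpG sites with the help of the inactive relative Dnmt3l. In ES cells this methylation is known for keeping germline genes, imprinted alleles and repeats silent, and its de novo arm has been placed downstream of microRNAs that restrain the Rb family protein Rbl2.

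Below, values of a gene on the 4 arrays of a line follow 1 order: clone 27G5 with the Dnmt line in Cy5, then in Cy3, and clone 27H10 with the line in Cy5, then in Cy3. A difference is the Dnmt3a,3b line minus the Dnmt1 line on the log2 scale, as mean ± SD over the 2 clones. Subtracting arrays of the same dye orientation gave 4 differences per gene. Median signals of the 8 arrays lay at 112 to 132 for green and 234 to 334 for red. Between 62.1% and 68.1% of probes were well above background where a Dnmt line was labelled. The 4 arrays of clone 27G5 shared 1 slide and those of clone 27H10 another, so slide and clone cannot be told apart.

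One array stood apart. The ratios of the Dnmt3a,3b line in clone 27G5 with that line in Cy5 correlated with those of its dye swap at r = 0.396 over 20048 genes, against 0.673 to 0.91 for the other 5 pairs. They correlated at 0.815 and 0.837 with the Cy5 arrays of clone 27H10. Its channel of the Dnmt3a,3b line correlated with the dye swap at r = 0.986, against 0.992 to 0.998 elsewhere, and its Dicer-null channel at 0.996. The 27G5 differences had an SD over genes of 0.435 from the Cy5 arrays and 0.222 from the Cy3 arrays, and those of 27H10 had SDs of 0.195 and 0.187. Results are therefore also given with the 27G5 difference taken from its Cy3 arrays alone.

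The methyltransferase transcripts were examined first, because they bear on the labels. Dnmt3a at its brightest probe (chromosome 12, build mm7, as for all probe positions) stood at -0.02, -0.74, -1.57 and -1.79 over the Dicer-null parent in the Dnmt3a,3b line. The Dnmt1 line had -0.87, -0.99, -1.66 and -1.83. At this probe both lines lay below their parents on all arrays, and their ranges overlapped. The difference of 0.31 ± 0.34 (SD, n = 2; limma adjusted p = 1) was made of 0.55 in clone 27G5 and 0.07 in clone 27H10. In 27G5 it was 0.85 from the Cy5 arrays, which include the one that stood apart, and 0.25 from the Cy3 arrays. With 27G5 from its Cy3 arrays alone, the mean difference was 0.16. The other 2 probes of Dnmt3a gave mean differences of 0.15 and 0.31, and clone 27H10 stood at -0.05 and 0.04 there. The first of these had ratios of 0.47, -0.08, 0.39 and 0.04 in the Dnmt3a,3b line. In the Dnmt1 line it had -0.05, -0.28, 0.41 and 0.12. Whether Dnmt3a lay below the parent thus depended on the probe.

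Dnmt3b, on chromosome 2, had ratios of -1.36, -1.56, -0.52 and -0.72 in the Dnmt3a,3b line. In the Dnmt1 line they were -1.37, -1.33, -0.66 and -0.90. Again all 8 ratios were below 0, the difference was 0.02 ± 0.19, and its sign turned in 3 of 13 alternatives. Dnmt1, on chromosome 9, stood at 0.64, -0.00, 0.45 and -0.02 in the Dnmt3a,3b line, against 0.17, 0.04, 0.70 and 0.16 in the Dnmt1 line. The clones disagreed, at 0.21 in 27G5 and -0.21 in 27H10, and the sign of the mean turned in 4 of 13 alternatives. Dnmt3l was at -0.25 ± 0.19 and Dicer1 at -0.14 ± 0.17; with 27G5 from its Cy3 arrays alone they were at -0.41 and 0.089. None of these genes passed the test, and at these probes the transcripts did not separate the 2 lines as their labels name them. Whether the transgenes carry the probed sequence is not stated, and protein was not measured.

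**Figure D1:**
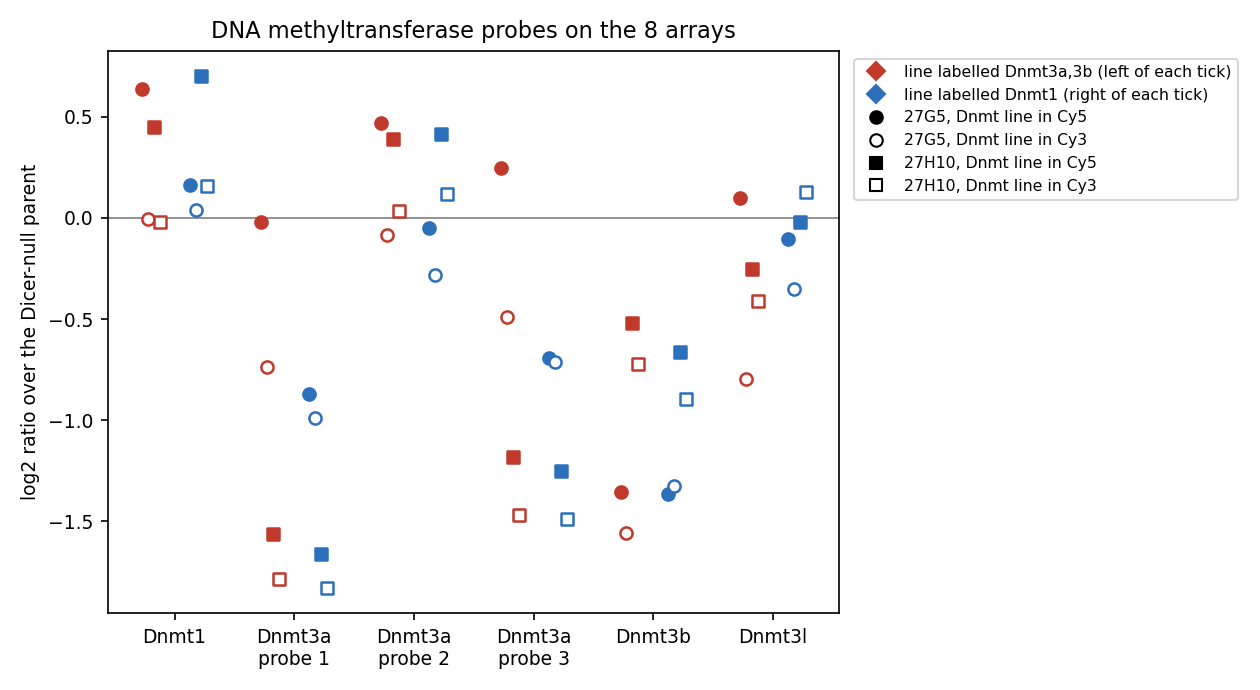
Log2 ratio of each Dnmt line over its Dicer-null parent (y axis) at the probes of the DNA methyltransferases (x axis), with 1 point per array; the line labelled Dnmt3a,3b is left of each tick and the line labelled Dnmt1 right of it. Circles are clone 27G5 and squares clone 27H10; the 2 lines overlap at every probe, and all 8 Dnmt3b ratios lie below 0.

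Across all genes the 2 lines were close. No gene (0 of 20048, a percent called of 0) passed an adjusted p under 0.05 in limma, and 191 genes had an unadjusted p under 0.05, the smallest being 0.00119. In both clones together, 94.4% of genes differed by less than 1.5-fold. A difference of at least 1 on the log2 scale was seen for 101 genes in clone 27G5 and for 6 in clone 27H10, and for 3 in the mean of the clones.

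The 2 clones did not repeat each other. The clone differences had opposite signs for 12424 genes (62%). Over all genes they correlated at r = -0.33, and at -0.0894 with 27G5 taken from its Cy3 arrays. The points are genes, which are not independent replicates, and share their arrays. Within a clone, the 2 dye orientations correlated at 0.508 in 27G5 and 0.752 in 27H10. A gene had 1 sign in all 4 differences in 1422 cases on the higher side (7.09%) and 1957 on the lower side (9.76%). With median centring in place of loess, this split turned to 2196 higher (11%) and 1274 lower (6.35%).

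Genes were taken as alike in both clones when all 4 differences had 1 sign and each clone's difference was at least 0.5. That size was chosen after the values were seen, so the genes it gave were named after their values were seen, and what follows is a description with no test. It held 14 genes that were higher in the Dnmt3a,3b line (0.0698% of those tested) and 10 that were lower (0.0499%). All 24 were well above background on all 8 arrays in the channel of the Dnmt line. Just inside the limit, the smaller clone difference was 0.502 for Smc1b, 0.527 for Ankrd12 and 0.532 for Ott. Just outside it were Lpl at 0.499, 4932413O14Rik at 0.488 and Mid1ip1 at 0.483. Without the Cy5 arrays of clone 27G5, 21 of the 24 still qualified, the exceptions being Lefty2, C130006E23 and Ppp1r9a. Fewer of the 24 qualified with the mean of a gene's probes (16), from Cy5 arrays alone (17) and from Cy3 arrays alone (19). Other scalings of the arrays kept 22 or 23.

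**Figure D2:**
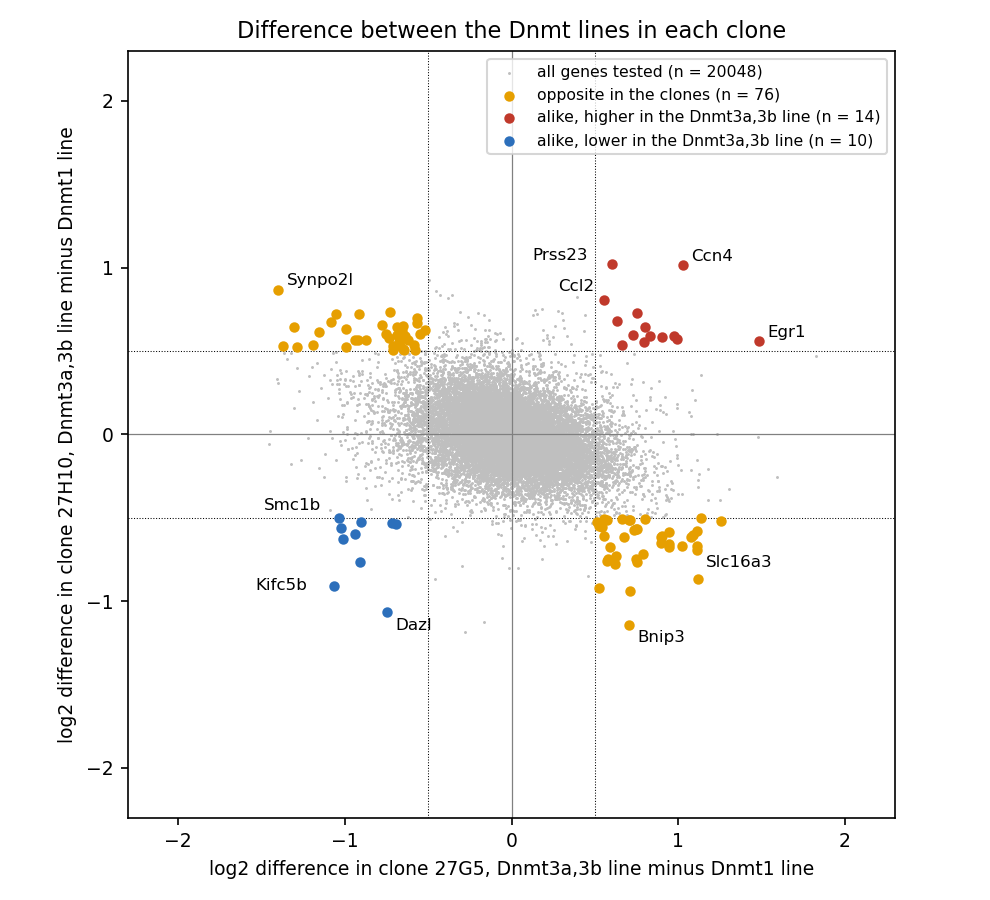
Difference between the Dnmt3a,3b line and the Dnmt1 line in clone 27G5 (x axis, log2) against that in clone 27H10 (y axis, log2), with 1 grey point for each of 20048 genes and dotted lines at 0.5. The 14 genes alike and higher are upper right and the 10 alike and lower are lower left, while 76 genes lie in the other 2 corners, where the clones are opposite.

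Of the 14 higher genes, Ccn4, a secreted matrix-associated protein of the CCN family (probe on chromosome 15, 67006754 to 67006813), had ratios of 1.45, 2.26, 1.37 and 1.66 in the Dnmt3a,3b line. In the Dnmt1 line they were 0.73, 0.93, 0.36 and 0.63. Every array of the Dnmt3a,3b line was above every array of the Dnmt1 line, and the difference was 1.02 ± 0.01. Both lines were above their Dicer-null parents, the Dnmt3a,3b line more so.

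Prss23, a secreted serine protease on chromosome 7, stood at 1.67, 2.56, 2.04 and 2.43 in the Dnmt3a,3b line, against 1.46, 1.56, 0.92 and 1.52 in the Dnmt1 line. The ranges did not overlap, and the difference was 0.81 ± 0.30. The chemokine Ccl2, which attracts monocytes, was at 2.35, 2.54, 2.45 and 2.29 in the Dnmt3a,3b line and at 1.99, 1.80, 1.50 and 1.63 in the Dnmt1 line. Its 4 values in each line lay close together and apart from those of the other, with a difference of 0.68 ± 0.18.

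Tagln, an actin-binding protein of smooth muscle, had 0.75, 1.11, 0.86 and 1.07 in the Dnmt3a,3b line. The Dnmt1 line had 0.22, 0.37, 0.24 and 0.32. The groups were again apart, the difference was 0.66 ± 0.03, and the second Tagln probe gave 0.96. Tagln was also a member of the list of fibroblast and matrix genes. That list had 24 measured members, of which 5 were higher in all 4 differences (20.8%, against 7.09% of all genes) and 1 was lower (4.17%, against 9.76%). In the 3 differences left without the 27G5 Cy5 arrays, 7 were higher (29.2%, against 17.6% of all genes) and 1 was lower (4.17%, against 17.5%). The summed normalized signal of the list ranged per array from 86920 to 117100 in the Dnmt3a,3b line and from 86160 to 112400 in the Dnmt1 line. Of its defining genes, Col1a1 and Thy1 were well above background on all 8 arrays and Col3a1 on 1 of 4 arrays in each line. Col1a2 was so on 4 arrays of the Dnmt3a,3b line and 3 of the Dnmt1 line. In 27G5 and 27H10, Col1a1 differed by 0.26 and -0.04, and Col1a2 by -0.09 and 0.11. Thy1 differed by 0.40 and 0.10, and Col3a1 by 0.04 and 0.13. The part of these genes' cells in the Tagln value was not tested.

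Egr1, a zinc finger factor induced within minutes by ERK signalling, had 0.21, -0.02, -0.17 and -0.24 in the Dnmt3a,3b line. In the Dnmt1 line it had -1.27, -1.52, -0.74 and -0.78. The Dnmt3a,3b line was near its parent and the Dnmt1 line below its own on every array, with a difference of 1.49 in clone 27G5 and 0.56 in clone 27H10.

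Its relative Egr2 was at -1.21, -0.04, -1.14 and -0.60 in the Dnmt3a,3b line and at -1.61, -1.15, -1.84 and -1.35 in the Dnmt1 line. Here the ranges overlapped and both lines varied with the dye, but each of the 4 paired differences was above 0, at 0.74 ± 0.02. The mean Egr2 difference was 1.30 with the scanner's log ratio and 1.29 with the series table. Spry4, a feedback inhibitor of receptor tyrosine kinase signalling, differed by 0.66 ± 0.10, with 0.34 at a second, dimmer probe. Ccnd1, the cyclin that drives G1 progression, had 0.31, 0.04, 0.06 and 0.01 in the Dnmt3a,3b line against -0.43, -0.55, -0.45 and -0.56 in the Dnmt1 line. The 8 values fell into the 2 lines without overlap, and the difference was 0.60 ± 0.09.

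Of 17 measured members of the wider list of FGF-ERK feedback genes, 2 were higher in all 4 differences (11.8%, against 7.09% of all genes). In the main setting 1 was lower (5.88%, against 9.76%). With median centring 6 were higher (35.3%, against 11% of all genes) and 2 lower (11.8%, against 6.35%). The lower one in the main setting was Fgfr2, an FGF receptor, at -0.62 in 27G5 and -0.33 in 27H10. Dusp6, Etv4, Etv5 and Fos, other targets of the pathway, did not keep 1 sign. The list of retinoblastoma and G1/S genes, which holds Ccnd1, had 7 of 28 members higher in all 4 differences (25%, against 7.09% of all genes) and 3 lower (10.7%, against 9.76%). In the 3 differences left without the 27G5 Cy5 arrays, 8 were higher (28.6%, against 17.6% of all genes) and 5 lower (17.9%, against 17.5%). With median centring 5 were higher in all 4 (17.9%, against 11%) and 1 was lower (3.57%, against 6.35%). Ccnd2 was at 0.81 in 27G5 and 0.14 in 27H10, and the CDK inhibitor Cdkn2d at -0.46 and -0.04.

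Lefty2, a secreted inhibitor of Nodal, had -0.63, -1.83, -1.76 and -2.20 in the Dnmt3a,3b line and -1.96, -2.09, -2.26 and -2.80 in the Dnmt1 line. The value of -0.63 is from the array that stood apart, the lines overlapped, and without the Cy5 arrays of 27G5 its 27G5 difference was 0.26 and its mean 0.41, against 0.67 ± 0.17 with them. Lefty1 differed by 0.31 in 27G5 and 0.64 in 27H10 but changed sign between the 27G5 orientations. Zic2, a zinc finger factor of neural progenitors and ES cells, differed by 0.72 ± 0.11, from 0.66 and 0.95 on the arrays of 27G5, with 0.98 and 0.30 on those of 27H10. Gbx2, a homeobox gene of the same list, neuroectoderm and primed epiblast, differed by 0.44 in 27G5 and 0.47 in 27H10. The list as a whole did not share this. Of 15 measured members, 2 were higher in all 4 differences (13.3%, against 7.09% of all genes) and 1 was lower (6.67%, against 9.76%). For 9 members the clones differed in sign (60%, against 62% of all genes), as for Otx2 at 0.47 in 27G5 and -0.26 in 27H10.

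Bhmt, which remethylates homocysteine to methionine, differed by 0.74 ± 0.22, and Cabp4, a calcium-binding protein of photoreceptor synapses, by 0.78 ± 0.30. Tgtp1, an interferon-induced GTPase, differed by 0.71 ± 0.17, but a second probe gave 0.05. Rbbp4, a histone-binding subunit of Polycomb, NuRD and chromatin assembly complexes, differed by 0.78 ± 0.27. Of its 4 probes the second gave 0.81 and the remaining ones -0.18 and -0.01. The probe at -0.18 lies on the opposite strand from the others. The difference was thus not seen at every Rbbp4 probe.

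**Figure D3:**
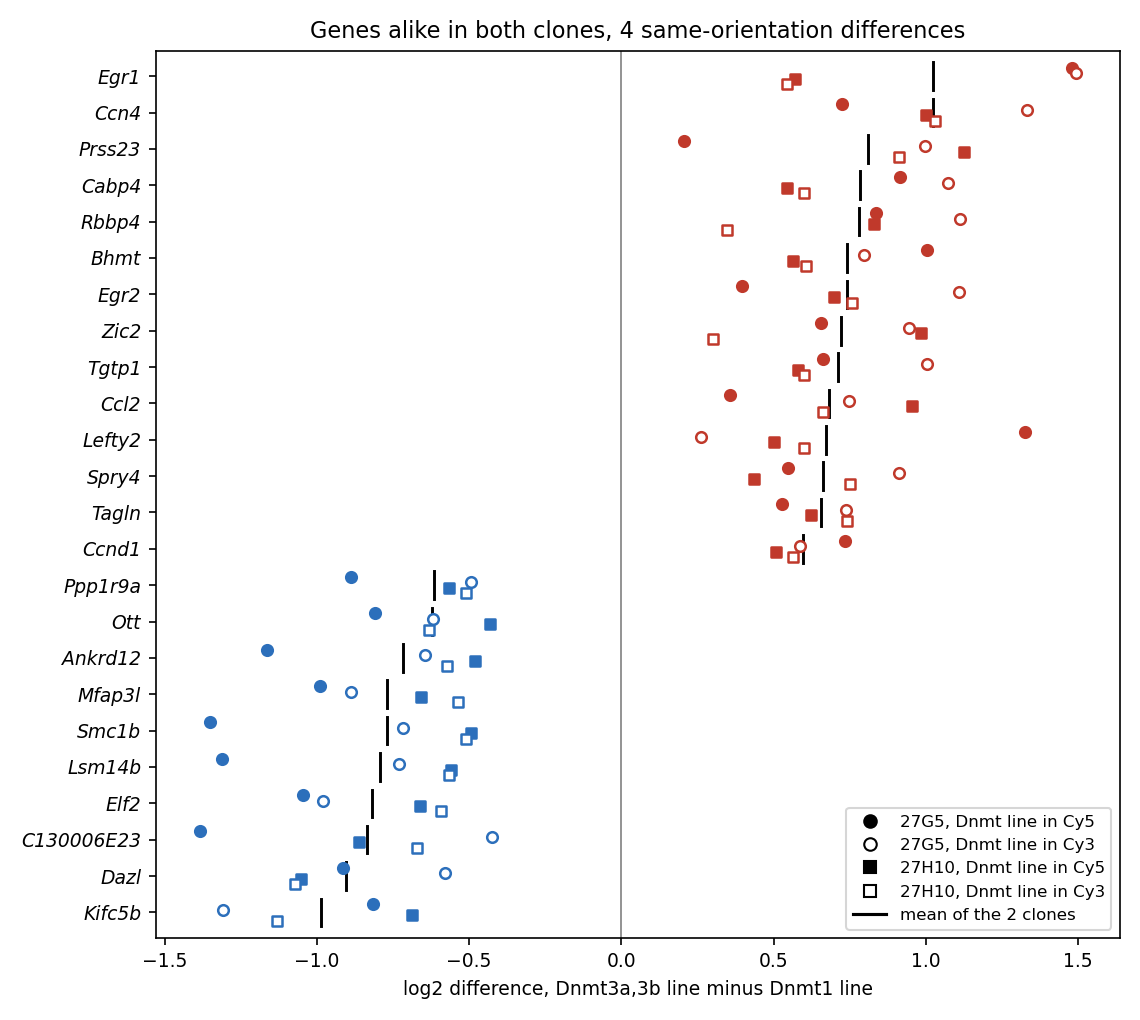
The 24 genes alike in both clones (y axis) with their 4 same-orientation differences between the Dnmt3a,3b line and the Dnmt1 line (x axis, log2); circles are clone 27G5, squares clone 27H10, filled symbols arrays with the Dnmt line in Cy5 and open ones in Cy3, and bars the mean of the 2 clones. Egr1 and Ccn4 are the highest at 1.02, Kifc5b is the lowest at -0.99, and no point lies across 0.

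On the lower side, 2 of the 10 genes belong to the germline, whose promoters are known to be kept silent by CpG methylation. Dazl, a germ cell RNA-binding protein on chromosome 17, had 0.56, 0.28, -0.44 and -0.78 in the Dnmt3a,3b line. It had 1.48, 0.86, 0.61 and 0.29 in the Dnmt1 line. In clone 27G5 both lines lay above their parent, and in clone 27H10 only the Dnmt1 line did, so the lines overlapped across clones and were apart within each. The difference was -0.90 ± 0.22, and -0.68 at a second probe.

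Smc1b, the meiotic cohesin subunit on chromosome 15, stood at -0.47, 0.41, -0.12 and 0.45 in the Dnmt3a,3b line, against 0.88, 1.12, 0.37 and 0.96 in the Dnmt1 line. The lines were apart in clone 27G5 and overlapped in clone 27H10, where both followed the dye. The difference was -1.03 in 27G5 and -0.50 in 27H10. Ddx4, a helicase of germ cells, had 1 sign as well, at -0.52 in 27G5 and -0.18 in 27H10.

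Of the 23 measured germline genes none was called (0), 8 were lower in all 4 differences (34.8%, against 9.76% of all genes) and 0 were higher. Without the 27G5 Cy5 arrays, 8 were lower in the remaining 3 differences (34.8%, against 17.5% of all genes) and 1 was higher. The list's median difference was -0.25 in clone 27G5 and -0.17 in clone 27H10, beside -0.02 and -0.00 over all genes. With median centring, 4 members were lower in all 4 differences (17.4%, against 6.35%) and 1 was higher. Taf7l, Sycp1 and Sycp2 were among the 8, and Stag3, another cohesin subunit, was at -0.82 and -0.78 in 27H10 but near 0 in 27G5. The list was chosen with earlier results of these data known.

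Promoters of these 3 germline genes are printed because CpG sites are what DNA methyltransferases act on. Each run is the 250 bases before the RefSeq start (build GRCm38.p6), 5′ to 3′, with CpG in capitals: Dazl at chr17:50293621-50293870 and Smc1b at chr15:85131958-85132207, both minus strand, and Ddx4 at chr13:112652311-112652560, minus strand.
Dazl: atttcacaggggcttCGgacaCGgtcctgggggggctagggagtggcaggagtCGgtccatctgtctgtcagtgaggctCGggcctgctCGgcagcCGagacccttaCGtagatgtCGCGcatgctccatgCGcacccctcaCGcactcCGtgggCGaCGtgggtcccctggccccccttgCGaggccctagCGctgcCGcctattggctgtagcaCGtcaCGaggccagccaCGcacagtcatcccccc
Smc1b: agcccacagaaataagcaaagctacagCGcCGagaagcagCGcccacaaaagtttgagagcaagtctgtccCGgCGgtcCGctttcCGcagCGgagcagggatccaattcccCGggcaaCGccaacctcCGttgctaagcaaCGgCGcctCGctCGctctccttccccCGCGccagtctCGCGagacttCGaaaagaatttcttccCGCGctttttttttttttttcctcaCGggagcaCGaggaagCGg
Ddx4: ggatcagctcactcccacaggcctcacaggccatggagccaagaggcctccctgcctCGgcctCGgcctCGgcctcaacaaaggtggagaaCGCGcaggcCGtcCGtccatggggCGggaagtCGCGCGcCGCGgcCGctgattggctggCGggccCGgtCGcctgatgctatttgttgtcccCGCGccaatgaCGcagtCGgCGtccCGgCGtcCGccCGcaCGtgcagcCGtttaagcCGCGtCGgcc
They hold 20, 25 and 31 CpG sites. Over the 23 promoters of the 20 germline genes matched in the RefSeq table the median was 16, against 14 over the 14871 promoters of genes tested and 6 over all 32841 promoters. The 9 matched genes that were alike and lower had a median of 25 over 13 promoters, and the 5 that were alike and higher had 16 over 15 promoters. Methylation itself was not measured.

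Among the higher genes, Egr2 carried a CArG box, the binding motif of serum response factor, which is known to act at Egr and smooth muscle genes. The promoter of 1 of its 5 RefSeq starts is printed to show the box, chr10:67537316-67537565, plus strand, with the box in capitals.
Egr2: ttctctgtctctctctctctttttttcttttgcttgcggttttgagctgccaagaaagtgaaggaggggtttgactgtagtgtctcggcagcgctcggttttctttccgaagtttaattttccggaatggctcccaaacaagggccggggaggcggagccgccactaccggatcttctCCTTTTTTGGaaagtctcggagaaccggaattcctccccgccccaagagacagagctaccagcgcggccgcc
The CArG consensus is its own reverse complement, so the search covered both strands. The printed box begins 72 bases before its start. Only 5 of the 14 higher genes were matched in the RefSeq table. Egr1 and Tagln were not among the 5, so their promoters were not searched. A match to the motif was found in 4 promoters, all of Egr2, which is 1 gene of the 5. By gene, 169 of the 11706 matched genes tested had a match. Matches were found in 1.47% of all promoters of this length and in 1.22% of those of genes tested. The other Egr2 promoters with a match begin at 67537619 or later, downstream of the printed box, and so hold a different one. A match describes these letters and does not show a bound site.

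Kifc5b, a minus-end kinesin of the spindle (chromosome 17), had 0.61, -0.52, -1.09 and -1.50 in the Dnmt3a,3b line. The Dnmt1 line had 1.43, 0.79, -0.40 and -0.37. The clones differed in level by more than the lines did, yet within each clone the Dnmt3a,3b line was lower on both arrays, with a difference of -0.99 ± 0.11, and the second probe gave -0.77. Elf2, an ETS family transcription factor, differed by -0.82 ± 0.27, and Lsm14b, an RNA-binding protein of P-bodies and oocytes, by -0.79 ± 0.33 with -0.23 at its second probe. Lsm14b was the 1 lower gene whose ratios in the 2 lines did not overlap at all, compared with 8 of the 14 higher genes. Over all genes the shares were 0.589% on the higher and 1.14% on the lower side. The alike genes were chosen by differences of these same ratios, so a larger share among them is partly built in and is no support.

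Ankrd12, an ankyrin repeat cofactor, differed by -0.72 ± 0.27, while its other probes lay between -0.69 and -0.04. Mfap3l was at -0.77 ± 0.24 and between -0.49 and -0.07 at its other probes. Ppp1r9a, which encodes the actin-binding scaffold neurabin, was at -0.62 ± 0.11, with -0.03 at the 1 other probe that was well above background on all 8 arrays. Ott and C130006E23, both on the X chromosome, were at -0.62 ± 0.13 and -0.84 ± 0.10.

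The 4 arrays of Dicer-null against wild-type RNA do not enter the difference, though they enter the spread behind its p, and give a separate readout of these genes. In the same limma fit, 6 of the 14 higher genes were called higher in Dicer-null than in wild-type cells (20.4% of all genes were) and 6 were called lower (20.1% of all genes). Those lower in Dicer-null cells were Ccn4, Prss23, Ccl2, Spry4, Tagln and Ccnd1, Prss23 at -5.53 and -5.39 in the 2 clones and Tagln at -4.29 and -4.10. Those higher were Egr1, Egr2, Cabp4, Bhmt, Tgtp1 and Lefty2, with Bhmt at 2.99 and 2.77. Of the 10 lower genes, Smc1b, Dazl and Ankrd12 were called higher in Dicer-null cells, Smc1b at 4.12 and 3.35, and 0 were called lower.

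The gene list with the most members of 1 sign was fatty acid and cholesterol synthesis. Of 25 measured, 11 were higher in all 4 differences (44%, against 7.09% of all genes) and 0 were lower. Without the 27G5 Cy5 arrays the count was again 11 (44%, against 17.6%), and it was 11 to 12 under the other 3 scalings. No member was called by limma (0). The size differed between clones: the list's median was 0.42 in clone 27G5, 0.30 from its Cy3 arrays alone, and 0.03 in clone 27H10.

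Scd1, the desaturase that makes monounsaturated fatty acids, had ratios of -1.29, -1.79, -1.83 and -1.81 in the Dnmt3a,3b line. The Dnmt1 line had -2.22, -2.44, -2.11 and -2.16. All 8 ratios were below 0, those of the Dnmt1 line further so, without overlap, and the difference was 0.55 ± 0.34. Idi1, an isomerase of the mevalonate pathway, differed by 0.53 in 27G5 and 0.18 in 27H10, and Hmgcs1, which makes HMG-CoA, by 0.31 and 0.21. Mvd, Fdps and Cyp51, further steps toward cholesterol, had 1 sign too. Scd2 showed the clone difference most plainly, at 1.67 and 1.29 in 27G5 and 0.05 and -0.09 in 27H10.

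**Figure D4:**
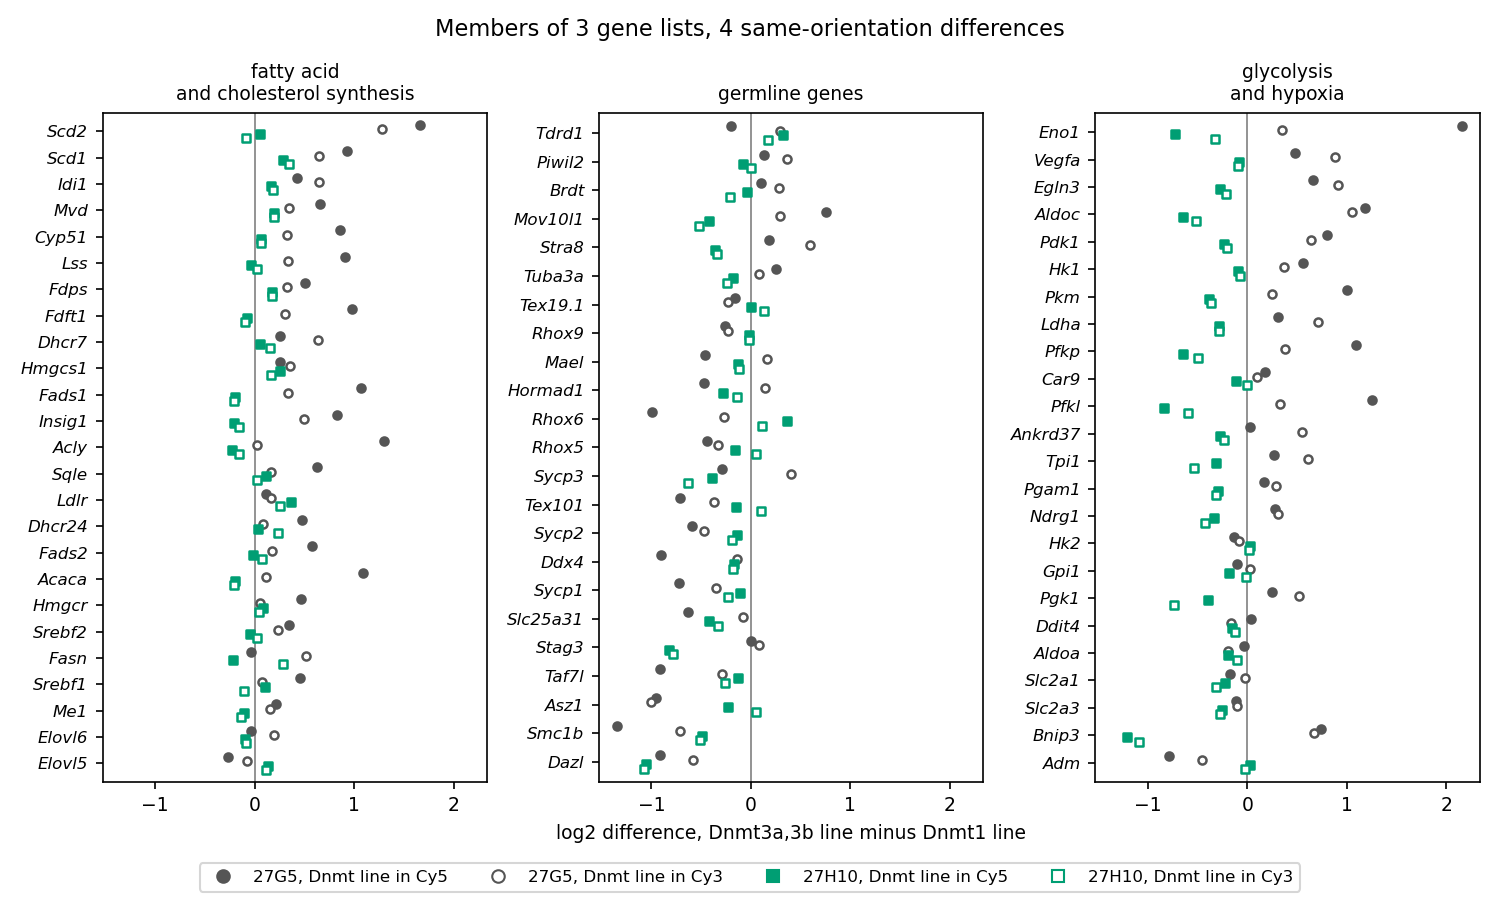
The 4 same-orientation differences between the Dnmt3a,3b line and the Dnmt1 line (x axis, log2) for each measured member (y axis) of 3 gene lists; grey circles are clone 27G5 and green squares clone 27H10, filled for the Dnmt line in Cy5 and open for Cy3. Cholesterol genes sit right of 0 mainly in 27G5, 8 of 23 germline genes are left of 0 at all points, and 17 of 24 glycolysis and hypoxia genes are right of 0 in 27G5 and left of 0 in 27H10.

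Glycolysis and hypoxia genes were opposite in the clones. Of 24 measured, 17 were higher in the Dnmt3a,3b line in both orientations of 27G5 and lower in both of 27H10 (70.8%, against 15.3% of all genes), and 1 was the other way round (16.6% of all genes). The median was 0.41 in 27G5 (0.34 from the Cy3 arrays alone) and -0.27 in 27H10. Bnip3, a hypoxia-induced mitophagy receptor, had 0.80 and 0.41 in the Dnmt3a,3b line of 27G5 against 0.06 and -0.26 in its Dnmt1 line. In 27H10 it had 0.09 and -0.20 in the Dnmt3a,3b line against 1.30 and 0.89 in the Dnmt1 line. The line with the higher Bnip3 level thus changed with the clone.

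Slc16a3, the lactate exporter, differed by 1.11 in 27G5 and -0.69 in 27H10, and Aldoc, an aldolase, by 1.18 and 1.05 on the 2 arrays of 27G5 and by -0.64 and -0.51 on those of 27H10. Slc2a1 and Slc2a3, the glucose transporters of the list, were lower in all 4 differences, as was Aldoa. With 1 sample of each line per clone, the opposite pattern has no replicate within a clone.

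Over all genes, 76 were opposite in the clones with at least 0.5 in each (0.379%), 40 of them higher in 27G5, and there were 34 such genes with 27G5 taken from its Cy3 arrays. Among pluripotency factors the signs were opposite too, though smaller, for Pou5f1 at 0.41 in 27G5 and -0.49 in 27H10 and for Nanog at 0.34 and -0.46. Of 22 pluripotency genes, 7 were higher in both 27G5 differences and lower in both of 27H10 (31.8%, against 15.3% of all genes). Nr0b1 was higher in all 4 differences, at 0.24 and 0.36 by clone, and Klf4 was lower, at -0.16 and -0.13. Pou5f1, Nanog, Sox2 and Zfp42, which define ES cells, were well above background on all 8 arrays.

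Markers of other cell types overlapped between the lines in their summed normalized signal, over ranges that pool both clones. Such an overlap does not compare the lines within a clone. In bulk RNA, fewer cells of a type and less RNA per cell cannot be told apart. Summed over 20 trophoblast genes, the signal ranged from 120700 to 229900 in the Dnmt3a,3b line and from 122800 to 302300 in the Dnmt1 line. The median difference of this list was -0.26 in 27G5 and 0.04 in 27H10. In all 4 differences, 4 members were lower (20%, against 9.76% of all genes) and 1 was higher (5%, against 7.09%). Gata3, a trophoblast regulator with the lowest mean difference of the list, was at -1.32 in 27G5 and -0.18 in 27H10. Its ratios over the parent were 1.89 to 2.52 in the Dnmt3a,3b line and 2.26 to 3.74 in the Dnmt1 line. Other defining trophoblast genes did not follow it, with Cdx2 at 0.13 in 27G5 and 0.41 in 27H10, and Elf5 at -0.69 and 0.46. Summed levels of primitive endoderm, mesoderm, neuroectoderm and prolactin family genes overlapped between the lines as well. The brachyury gene T was well above background on 0 of 8 arrays.

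Imprinted genes leaned lower, with 6 of 32 lower in all 4 differences (18.8%, against 9.76%) and 2 higher (6.25%). Sgce, a maternally silenced sarcoglycan gene, was at -0.82 in 27G5 and -0.31 in 27H10, and the ubiquitin ligase gene Ube3a at -0.57 and -0.17. Usp29, another gene of the list, was at -0.44 and -0.05 without 1 sign in all 4. In the interferon and MHC class I list, 6 of 32 were higher in all 4 differences (18.8%, against 7.09%), among them 2 sensors of double-stranded RNA. Oas1a was at 0.42 in 27G5 and 0.19 in 27H10, and Oas3 at 0.25 and 0.22. Tapbp, of peptide loading, was at 0.38 and 0.07. The median of the interferon list was 0.26 in 27G5 and -0.01 in 27H10. In the 3 differences left without the 27G5 Cy5 arrays, 8 of its members were higher (25%, against 17.6% of all genes). There 1 was lower (3.12%, against 17.5%).

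Further single genes of the lists had 1 sign in both clones without passing the test. The proliferation marker Mki67 was at -0.46 in each clone, and the mitotic checkpoint kinase Bub1 at -0.15 and -0.28. Their list of 24 measured replication and mitosis genes did not lean to 1 side, with a median difference of 0.002. In all 4 differences, 3 members were higher (12.5%, against 7.09% of all genes) and 3 were lower (12.5%, against 9.76%). Rrm2b, the p53-induced ribonucleotide reductase subunit, was at -0.43 in 27G5 and -0.42 in 27H10. Uhrf2, a relative of the Dnmt1 partner Uhrf1, was at -0.19 and -0.28, and Uhrf1 at 0.15 and 0.12. Tut4, which uridylates let-7 precursors, was at -0.72 and -0.19, and the Argonaute Ago3 at -0.21 and -0.19. The list of small RNA machinery did not lean lower. Of its 19 measured genes, 2 were lower in all 4 differences (10.5%, against 9.76% of all genes). There 1 was higher (5.26%, against 7.09%), and the median difference was 0.03.

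Across chromosomes the median difference ran from -0.04 on chromosome 12 to 0.01 on chromosome 11 among autosomes, and was -0.03 on the X. Chromosome 12 was at -0.07 in 27G5 and -0.03 in 27H10, but at -0.01 from the 27G5 Cy3 arrays. Of the lower alike genes, 3 (Kifc5b, Dazl and Ankrd12) lie on chromosome 17.

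**Figure D5:**
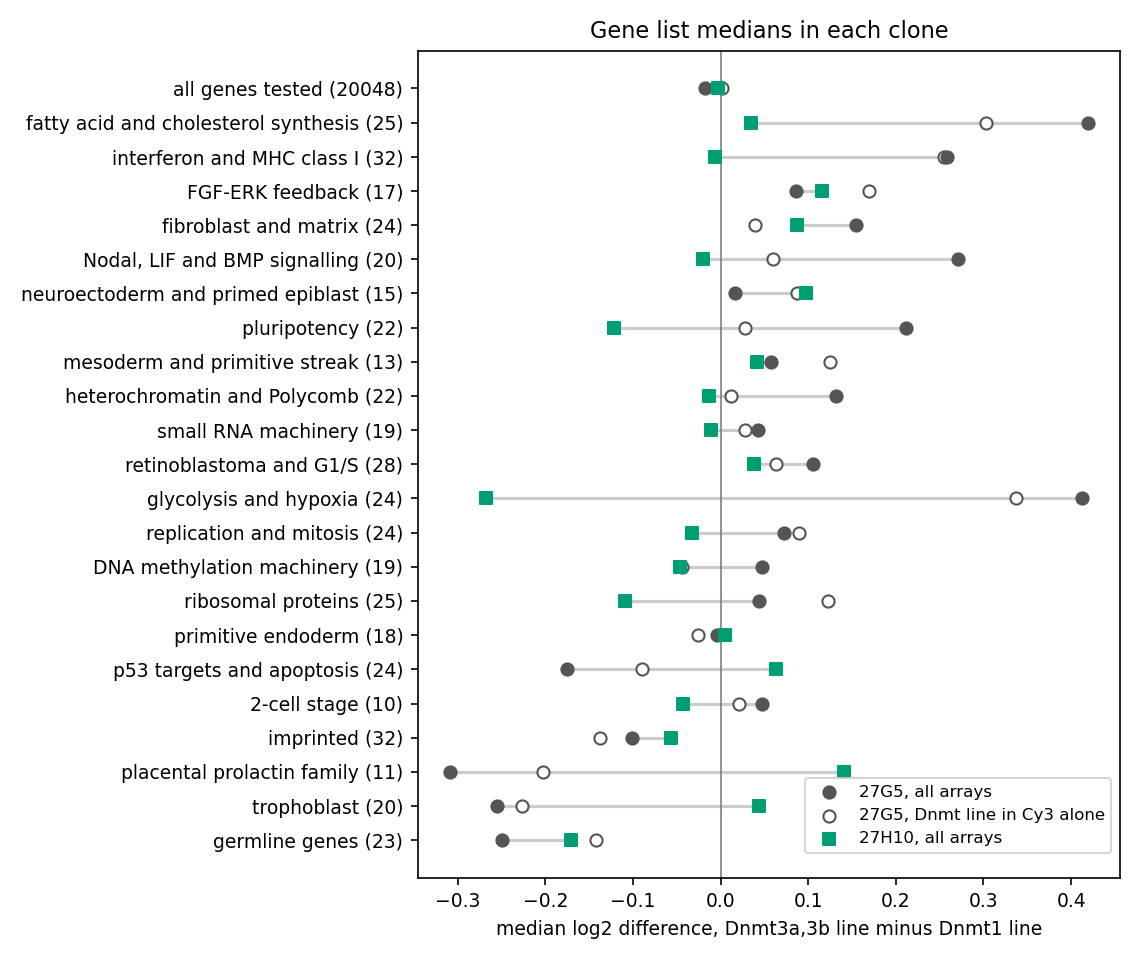
Median difference between the Dnmt3a,3b line and the Dnmt1 line (x axis, log2) of each gene list (y axis, with the number of members measured) in clone 27G5 (filled circles; open circles from the Cy3 arrays alone) and clone 27H10 (green squares). Germline genes lie left of 0 in both clones, at -0.25 and -0.17, and glycolysis and hypoxia genes lie at 0.41 in 27G5 and -0.27 in 27H10.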

How the data were processed

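RNA of the 2 Dnmt lines and their Dicer-null parents was hybridised to Agilent 2-colour arrays. The deposited scanner files hold, per the file headers, mean spot intensity and median local background from Agilent Feature Extraction 9.5.1.1 (9.1.3.1 for arrays with wild-type RNA), and its log10 ratio of red over green. The deposited log2 ratios of the series table have an unstated centring; both were alternatives.

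Intensities were corrected by normexp (offset 50) and loess-normalized within arrays in limma 3.58.1 (R 4.3.3), with control spots at weight 0 and outlier spots left out. Spots were averaged by probe, dye swaps were averaged, and the brightest probe stood for a gene. Of 41174 probes, 22951 were named through their accession and 18223 kept the file's name. A gene had to be well above background on both arrays of at least 1 RNA, which left 20048. The contrast was Dnmt3a,3b minus Dnmt1 over 6 pair means with 3 residual degrees of freedom and Benjamini-Hochberg adjustment at 0.05. The 6 included Dicer-null over wild type in each clone, and clone was not a term of this fit. The fit was tested on simulated data. The number of arrays limits the precision.

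The rule for named genes was the 12 highest and 12 lowest called genes, of which there were 0, plus Dicer1, Dnmt1, Dnmt3a, Dnmt3b, Dnmt3l and up to 3 members per list by moderated statistic; the genes beyond it were chosen after their values were seen. Members and lists were chosen with earlier results of these data known. Clones pair the samples, since both lines of a clone share its Dicer-null parent, and deviations from the line means correlated at 0.365.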

Additional observations from a re-analysis of the deposited data

Results flagged for a closer look

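For some genes both same-orientation differences of clone 27G5 lay on one side of 0 and both of clone 27H10 on the other. The values are the Dnmt3a,3b line minus the Dnmt1 line on the log2 scale, first in clone 27G5 and then in clone 27H10, and the difference between the clones was not tested. Higher in clone 27G5 and lower in clone 27H10 were Bnip3 (0.70 and -1.14), Hoxd4 (0.90 and -0.65), Inppl1 (1.12 and -0.87), Lamb1 (0.60 and -0.16), Lef1 (0.75 and -0.75), Pfkl (0.79 and -0.72), Slc16a3 (1.11 and -0.69) and St3gal3 (0.75 and -0.76). Lower in clone 27G5 and higher in clone 27H10 were Afp (-0.94 and 0.085), Cyp1a1 (-0.92 and 0.72), Id2 (-0.78 and 0.019), Kif12 (-1.08 and 0.67), Pax6 (-0.38 and 0.027), Plk2 (-0.78 and 0.66), Prl7d1 (-1.05 and 0.72) and Synpo2l (-1.40 and 0.87). The genes came from the 3 leading members of the gene lists and from the largest opposite differences, and slide and clone cannot be told apart.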

How the results depend on the processing

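No gene was called under any alternative in limma, with 0 to 0 when either clone was left out; unadjusted p under 0.05 was met by 191 genes, and by 108 to 2283 under the alternatives, the highest without clone 27H10. The replicate block by clone called 0 genes, with 215 at an unadjusted p under 0.05. The alike genes numbered 14 higher and 10 lower. They numbered 75 and 89 with the scanner's log ratio, 72 and 94 with the series table, 23 higher with median centring and 5 lower with the mean over probes. At a limit of 0.4, chosen after seeing the data, there were 26 and 22, and at 0.6 there were 5 and 4. Opposite genes (76) numbered 386 with the scanner's ratio, 383 with the series table, 172 from Cy5 arrays, 50 from Cy3 arrays and 34 with 27G5 from its Cy3 arrays alone, also added after seeing the data. All 24 alike genes kept their sign under every alternative, but the rule that chose them asks for 1 sign in all 4 differences. Leaving out a clone or a dye, or changing the fit, could therefore not turn it. Of the values of single named genes under alternatives, 368 kept their sign and 9 changed it, all of Dnmt1, Dnmt3b or Dicer1. Most of the 368 belong to the 24 alike genes, so this count is no separate support for them. Of the list medians, 264 moved by less than the spread between clones and 48 by more, with 30 and 9 sign changes among them. The causes were not tested. The number of clones and 1 array that stands apart limit every difference.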
